A study of Mus musculus with 8 samples.

Results

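Wdr5 and 9 genes whose proteins work with it in the COMPASS complexes (Ash2l, Rbbp5, Dpy30, Setd1a, Setd1b, Kmt2a, Kmt2b, Kmt2c and Kmt2d) were followed through 4 lists of H3K36me3 peaks from mouse embryonic fibroblasts (MEFs). The 10 genes were chosen by name out of 16344 protein-coding genes with at least 4 exons. All 10 were among the 8767 of these genes, here called marked genes, that had at least 10% of the gene body in peaks in at least 1 list. The question was whether the partners shared a pattern already seen at Wdr5 in these lists, in which induction of reprogramming left the peak at the 3′ end in place and broke the upstream peaks into pieces.

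The cells were i4F MEFs from a single day 13.5 embryo (clone 1 in the labels), whose cells the study had picked for their higher reprogramming efficiency, and all 4 groups carried the same doxycycline-inducible cassette of OCT4, SOX2, KLF4 and MYC (OSKM). They were kept for 72 h in medium for induced pluripotent stem cells and formed 4 groups: untreated cells (MEF), cells given vitamin B12 at 2 µM (MEF B12), cells given doxycycline to induce the cassette (OSKM), and cells given both agents (OSKM B12). Doxycycline was at 1 µg/ml by the sample labels, whereas the methods state the dose in mg/ml. The antibody is written as H3K3me3 in the protocol text and as H3K36m3 in the label of the immunoprecipitation. Each group had 1 H3K36me3 library and 1 input library, so no difference between groups has a replicate check, no p-value was computed, and the intervals given cover counting error only. An embryo is a mixture of cell types and doxycycline need not act equally in every cell, so fewer marked cells and less mark per cell cannot be told apart. All peaks together covered 92.8 Mb in OSKM, 153.7 Mb in MEF, 165.9 Mb in MEF B12 and 165.8 Mb in OSKM B12. A difference between the single libraries in the enrichment of the immunoprecipitation was not tested and cannot be told apart from a difference in the mark. The fibroblast label was checked against marker genes: 7 of 9 fibroblast genes, among them Col1a1, Fn1 and Pdgfra, were covered by peaks over at least 10% of the body in MEF and in OSKM, 8 in MEF B12 and 7 in OSKM B12, and 0 of 16 genes of epithelial, pluripotent, blood, endothelial and neuronal cells were so covered in any library. Twist1 had no peak in any library, and of the pluripotency genes Zfp42 had a peak over 2.42% of its body in OSKM.

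The COMPASS complexes methylate lysine 4 of histone H3. WDR5, ASH2L, RBBP5 and DPY30 form the core that all of them share, and each complex holds a catalytic subunit, SETD1A, SETD1B, KMT2A, KMT2B, KMT2C or KMT2D. WDR5 is known for its part in the self-renewal of embryonic stem cells and in reprogramming. H3K36me3, the mark measured here, is laid down by SETD2 as RNA polymerase II moves along a gene, and it usually grows towards the 3′ end. The values therefore describe the chromatin of the genes that encode the complexes, and not the methylation that the complexes carry out.

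At Wdr5, which lies on chromosome 2 between 27515157 and 27536535 (mm10, plus strand, 14 exons), the MEF list held 3 peaks that covered 80.9% of the gene body. MEF B12 held 2 peaks over 83.6%, OSKM 6 peaks over 61.6%, and OSKM B12 2 peaks over 81.8%. The OSKM list was the only one of the 4 in which the body was broken into more than 3 pieces. The last peak started in intron 10 in every list, at 17458 bases from the transcription start site (TSS) in MEF and 17411 in OSKM, against 17362 and 17502 with B12. It ran 661 and 538 bases past the 3′ end in MEF and OSKM, against 989 and 710 bases with B12. It was also the peak with the highest pileup of the gene in all 4 lists. Over the last 20% of the body, 91.7% of bases lay in peaks in MEF and 92.8% in OSKM. Over the first 80%, the covered share was 78.2% in MEF and 53.8% in OSKM, against 81.0% and 79.6% with B12, and the peaks in that order numbered 2, 5, 1 and 1. OSKM thus had a smaller covered share in the 5′ part, and its 3′ peak had nearly the same extent as in MEF. The level of the 3′ part was nevertheless lower in OSKM: its density, the pileup per 1000000 tags summed over the called bases and divided by all bases, was 0.727 in MEF and 0.592 in OSKM.

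The 5 breaks between the OSKM peaks of Wdr5 were not all particular to OSKM. A stretch of 356 bases in intron 10, from 27532163 to 27532518, separated the 3′ peak from the rest and lay in no peak of any library, and all of its bases are marked as repeats in the reference assembly. A break of 391 bases in intron 7 overlapped one that MEF has too and that both B12 libraries lack. Between the OSKM peaks, 3 further stretches were in peaks in the other 3 libraries and in none in OSKM: 1719 bases in intron 7, 802 bases in intron 8 and 418 bases in intron 9. Another such stretch, of 947 bases from intron 1 to intron 3, lay ahead of the first OSKM peak. Neighbouring peaks were at least 301 bases apart in every list, so that a break stands for at least that length without a called base. For Wdr5, the middle 120 bases are shown of the break that every library has and of the longest one that only OSKM has. The same is shown for the longest exon-free break found only in OSKM at 3 partners. Rbbp5 and Setd1a meet the rule for the pattern given further on. Kmt2b does not, and its break lies in its 3′ part. The Wdr5 break that every library has makes no difference between OSKM and MEF. All the sequences shown are intronic and are written 5′ to 3′ on the strand of the gene from RefSeq's GRCm38.p6 assembly. Capitals mark the bases that the assembly masks as repeats.
Wdr5 intron 10, chr2:27532281-27532400: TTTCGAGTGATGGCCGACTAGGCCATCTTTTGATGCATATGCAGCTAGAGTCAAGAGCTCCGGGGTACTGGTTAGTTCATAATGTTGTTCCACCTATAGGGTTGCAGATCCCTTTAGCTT
Wdr5 intron 7, chr2:27523508-27523627: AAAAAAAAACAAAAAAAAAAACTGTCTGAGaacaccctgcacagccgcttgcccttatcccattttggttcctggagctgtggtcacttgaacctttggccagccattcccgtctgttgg
Rbbp5 intron 4, chr1:132486948-132487067: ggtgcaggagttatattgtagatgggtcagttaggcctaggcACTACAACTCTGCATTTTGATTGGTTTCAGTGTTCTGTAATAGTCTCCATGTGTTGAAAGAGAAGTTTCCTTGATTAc
Setd1a intron 4, chr7:127782380-127782499: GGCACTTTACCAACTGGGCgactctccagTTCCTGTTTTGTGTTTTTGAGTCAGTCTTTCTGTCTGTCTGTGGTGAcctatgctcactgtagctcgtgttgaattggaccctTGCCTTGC
Kmt2b intron 30, chr7:30571545-30571664: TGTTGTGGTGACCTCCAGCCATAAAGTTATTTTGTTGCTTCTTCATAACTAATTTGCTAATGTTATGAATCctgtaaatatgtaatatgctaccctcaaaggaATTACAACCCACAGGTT

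Capitals make up all of the sequence from the Wdr5 break that every library has, and 25% of that from the break in intron 7 that only OSKM has. They make up 64.2% of the sequence from Rbbp5, 61.7% of that from Setd1a and 73.3% of that from Kmt2b.

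**Figure D1:**
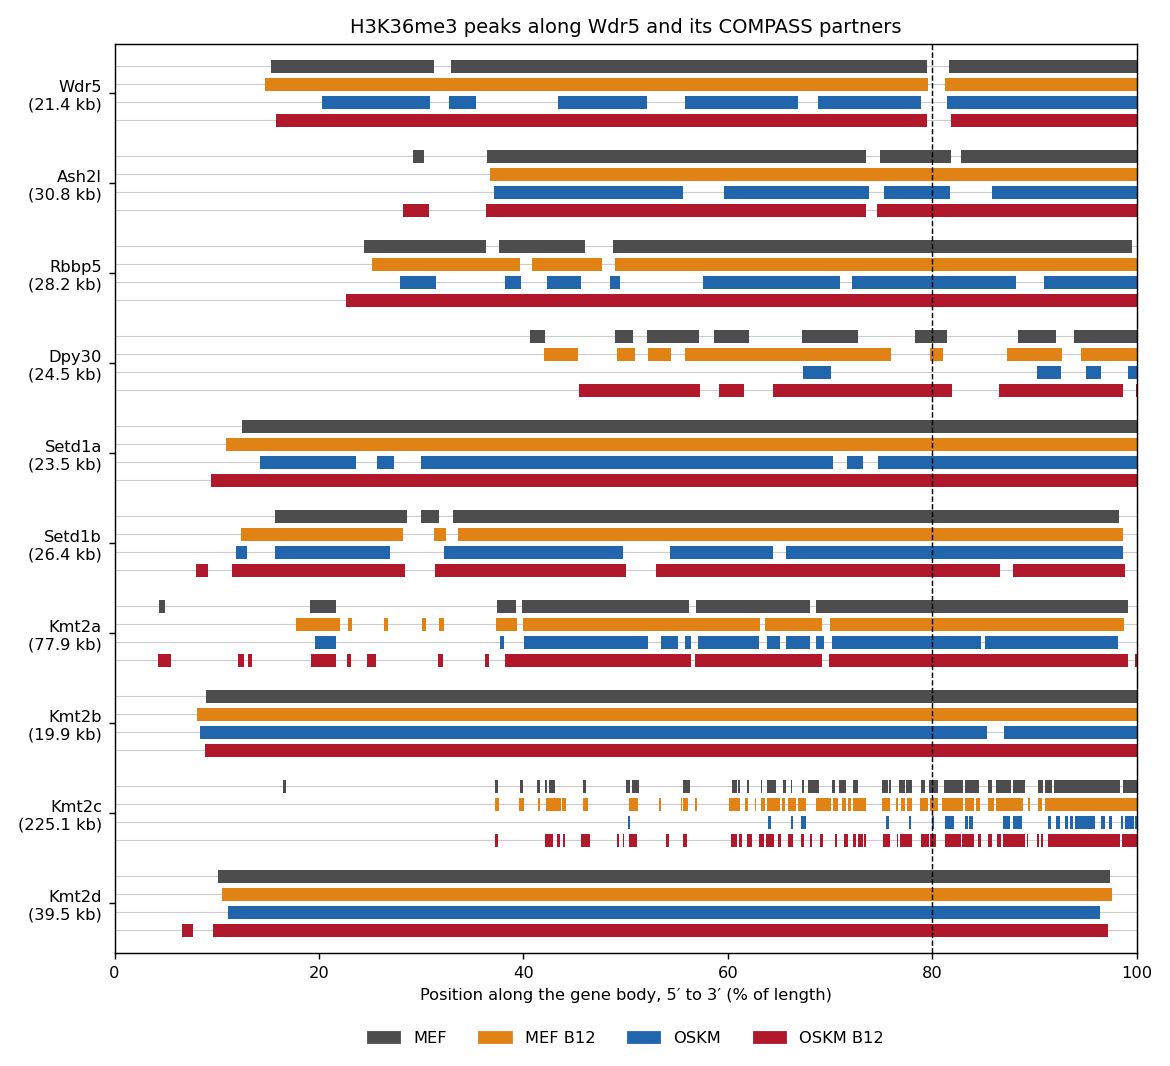
Peaks along the 10 gene bodies, each scaled to its length and drawn from the 5′ to the 3′ end, with 1 line for each of the 4 libraries and a dashed line at 80% of the body. Wdr5 has 6 pieces in OSKM and 3 in MEF with the last piece in the same place, Kmt2d is a single block in MEF and OSKM, and Kmt2c has 37 scattered peaks in MEF and 22 in OSKM.

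Among the other core subunits, Rbbp5 (chromosome 1, 132477435 to 132505659, plus strand) was the only one to meet the rule for the Wdr5 pattern given further on. RBBP5 joins ASH2L to stimulate the catalytic subunit. Its covered share was 71.1% in MEF and 48.0% in OSKM, against 72.4% and 77.4% with B12, and its peaks in that order numbered 3, 7, 3 and 1. In the first 80% of the body the share went from 64.5% in MEF to 38.4% in OSKM, and in the last 20% from 97.7% to 86.3%. Its longest stretch missing in OSKM alone was 2277 bases from intron 6 to intron 7. Unlike at Wdr5, the 3′ part itself held 2 peaks in OSKM and 1 in MEF.

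Ash2l (chromosome 8, 25816876 to 25847694, minus strand) was covered over 62.2% in MEF and 53.4% in OSKM, against 63.3% and 65.1% with B12. It had 4 peaks in both MEF and OSKM, 1 in MEF B12 and 3 in OSKM B12. Its 3′ part went from 94.9% covered in MEF to 79.2% in OSKM, a ratio of 0.835, and its 5′ part held 3 peaks in both. The equal count hides a break: a MEF peak of 11416 bases was split in OSKM into peaks of 5713 and 4392 bases. Between them lay 1218 bases in intron 8 that were missing in OSKM alone. A MEF peak of 340 bases in intron 3 was absent in OSKM, so the count stayed the same. A stretch of 1720 bases in intron 3 that is wholly masked as repeats lay in no peak of any library. The 3′ peak of Ash2l reached into the neighbouring gene Star in MEF, MEF B12 and OSKM B12 and not in OSKM, so the end of the covered block there is shared with that gene.

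Dpy30 (chromosome 17, 74299484 to 74323944, minus strand), which encodes the small subunit that binds ASH2L, had the lowest density of the 10 genes in MEF. The covered share was 30.2% in MEF and 7.37% in OSKM, against 39.6% and 43.9% with B12, and the peaks in that order numbered 8, 4, 7 and 5. The covered share was lower in OSKM in both parts of the body: the 5′ part went from 23.7% with 6 peaks to 3.41% with 1, and the 3′ part from 56.2% to 23.2% with 3 peaks in each. Dpy30 did not meet the rule for the Wdr5 pattern.

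The genes of the SETD1 enzymes both showed it. Setd1a (chromosome 7, 127776670 to 127800122, plus strand) was a single peak in MEF, MEF B12 and OSKM B12, covering 87.5%, 89.1% and 90.6% of the body, and 5 peaks over 78.3% in OSKM. Its last 20% was covered to 100% in all 4 libraries. Setd1b (chromosome 5, 123142193 to 123168629, plus strand) had 3 peaks over 79.9% in MEF and 5 over 73.0% in OSKM, against 3 over 82.1% and 5 over 81.3% with B12. Its 3′ part was covered to 91.4% in MEF and 93.1% in OSKM, and its 5′ part to 77.0% and 68.0%. At Setd1b the number of pieces in OSKM B12 equalled that in OSKM, although the covered share did not.

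The KMT2 genes divided. Kmt2a (chromosome 9, 44803355 to 44881296, minus strand), which encodes MLL1, had 6 peaks over 63.0% of the body in MEF and 11 over 54.9% in OSKM, against 9 over 65.6% and 12 over 66.9% with B12. Its 3′ part went from 95.7% to 88.9% and its 5′ part from 54.8% to 46.4%, so it met the rule. As at Rbbp5 and unlike at Wdr5, the 3′ part held 2 peaks in OSKM and 1 in MEF. They were parted by 321 bases in intron 29 that were missing in OSKM alone. OSKM B12 had more pieces than OSKM, and its first peak base lay in intron 1 at 3325 bases from the TSS, against 15252 in OSKM. Kmt2b (chromosome 7, 30568858 to 30588726, minus strand) was 1 peak in MEF, MEF B12 and OSKM B12 and 2 peaks in OSKM, with 91.0%, 91.9%, 91.2% and 89.98% covered. Its only break in OSKM was 338 bases in intron 30, in the 3′ part, the reverse of the position at Wdr5. Kmt2d (chromosome 15, 98831672 to 98871204, minus strand) was a single peak in MEF, MEF B12 and OSKM, over 87.3%, 87.1% and 85.3% of the body, and 2 peaks over 88.6% in OSKM B12. Kmt2c (chromosome 5, 25273609 to 25498745, minus strand), the longest of the genes at 225137 bases, had 37 peaks over 27.3% in MEF and 22 over 10.1% in OSKM, against 38 over 33.9% and 41 over 28.1% with B12. Its 3′ part went from 79.7% in MEF to 42.1% in OSKM and its 5′ part from 14.2% to 2.05%.

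To count the pattern by a rule, the 3′ end was taken as kept when the covered share of the last 20% of the body in OSKM was at least 80% of that in MEF, and the 5′ part as fragmented when the first 80% held more peaks and a smaller covered share in OSKM than in MEF. The rule was written to describe Wdr5, so Wdr5 meets it by choice. Of the 9 partners, 4 met both conditions (Rbbp5, Setd1a, Setd1b and Kmt2a), and with Wdr5 this makes 5 of the 10 genes. Among 8115 marked genes with peaks in both parts in MEF, the share was 18.9%. The rule takes no account of breaks within the last 20% of the body, which held 2 peaks in OSKM and 1 in MEF at Rbbp5 and at Kmt2a. The 3′ end was kept in 8 of the 10 genes, beside 41.5% of marked genes, and the 5′ part was fragmented in 5, beside 38.3%. The exceptions to a kept 3′ end were Dpy30 and Kmt2c, the genes with the lowest densities. The pattern was more frequent among marked genes with a higher density in MEF, at 1.18%, 6.80%, 23.2% and 44.5% in 4 equal classes of genes from the lowest to the highest density. The top class held 6 of the 10 genes (Wdr5, Setd1a, Setd1b, Kmt2a, Kmt2b and Kmt2d). The next held Ash2l and Rbbp5, and the lowest held Dpy30 and Kmt2c. Each condition alone also rose with density. From the lowest to the highest class, the 3′ end was kept in 14.9%, 28.4%, 48.96% and 73.9% of genes. The 5′ part was fragmented in 5.03%, 25.6%, 57.1% and 65.3%. Whether the 10 genes differ from marked genes of like density was not tested. Setd1a no longer met the rule with peaks up to 1 kb apart merged, and Rbbp5 no longer did when 90% had to be kept. The count depended on weak peaks: when peaks had to reach 5 in −log10 q, 1 gene, Setd1a, met the rule, and Wdr5 did not.

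**Figure D2:**
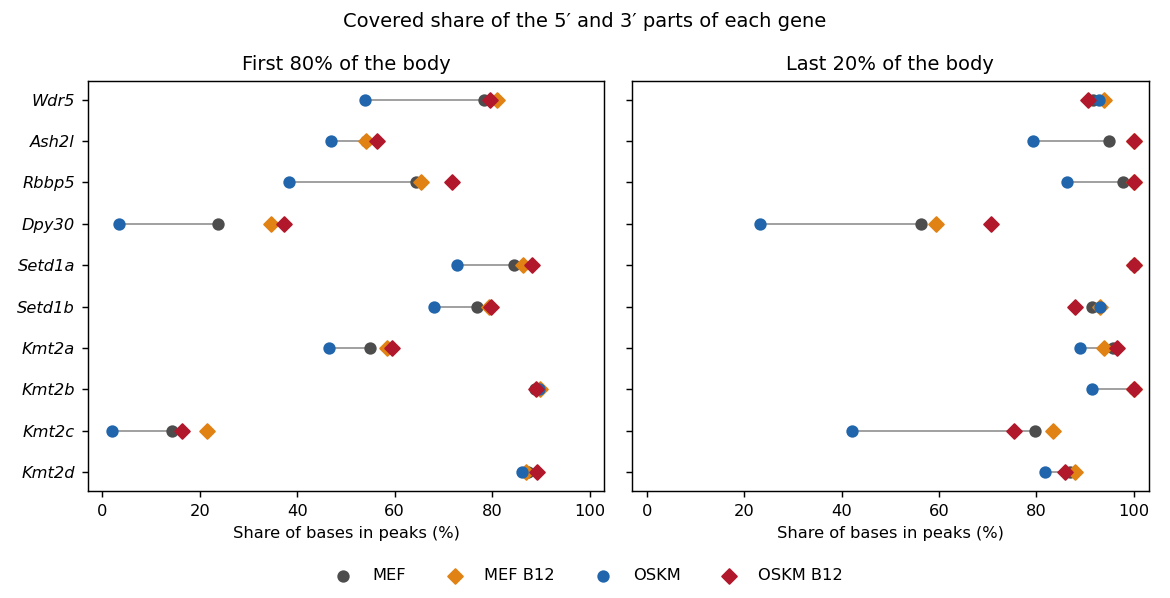
Share of bases in peaks in the first 80% (left) and the last 20% (right) of each gene body, with 1 point per library and a grey line from MEF to OSKM. Wdr5, Setd1a and Setd1b move in the left panel and hardly in the right one, whereas Dpy30 and Kmt2c move in both.

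The density over the whole body was lower in OSKM than in MEF by at least 1.5-fold in 10 of the 10 genes, beside 84.6% of marked genes, so the direction at these genes was that of most genes. Several ratios lay near the threshold: 8 genes passed it with peaks up to 1 kb apart merged (without Wdr5 and Setd1a), with pileup not divided by tags or with fold enrichment (both without Kmt2b and Kmt2d), and with repeat-masked bases left out (without Wdr5 and Setd1b). In Wdr5 it was 0.544 in MEF and 0.348 in OSKM, against 0.674 and 0.715 with B12. The OSKM to MEF ratio of Wdr5 was 0.640 (95% counting interval 0.587 to 0.697). The median ratio of the 10 genes was 0.633, and that of the marked genes was 0.518, a shift of −0.95 on the log2 scale. Divided by that median, the ratio of the 10 genes was 1.22, on the other side of 1. Relative to the median marked gene, 7 of the 10 genes had a higher ratio and 3 (Rbbp5, Dpy30 and Kmt2c) a lower one. The ratio of marked genes rose with the density in MEF. Its median was 0.367, 0.462, 0.546 and 0.610 in the 4 classes given above, and 6 of the 10 genes were in the top class. The highest ratio of the 10 genes was that of Kmt2d, at 0.666 (0.636 to 0.697), from 1.03 in MEF to 0.685 in OSKM. Kmt2b, at 0.658 (0.614 to 0.705), and Setd1b, at 0.649 (0.604 to 0.696), were near it. The lowest ratios were 0.321 (0.302 to 0.343) at Kmt2c, from 0.150 to 0.0482, and 0.259 (0.208 to 0.324) at Dpy30, from 0.134 to 0.0348. Rbbp5 had a ratio of 0.517 (0.473 to 0.565), close to the median of all marked genes. The remaining genes, Ash2l, Setd1a and Kmt2a, had ratios of 0.633, 0.633 and 0.613.

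The covered share was less reduced in OSKM than the density in every gene but Dpy30. Its OSKM to MEF ratio had a median of 0.865 over the 10 genes and 0.647 over the marked genes, and ranged from 0.244 at Dpy30 to 0.988 at Kmt2b. Genes with a high density in MEF kept more of their covered share: the Spearman correlation of both values was 0.915 across the 10 genes and 0.611 across 8679 marked genes. The MEF library enters both values, and genes are not independent replicates. Kmt2b and Kmt2d were at the end of this order, with their bodies almost wholly covered in OSKM and their densities lower by about the same factor as that of Wdr5. A lower density was thus measured both with and without a break in the peaks.

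**Figure D3:**
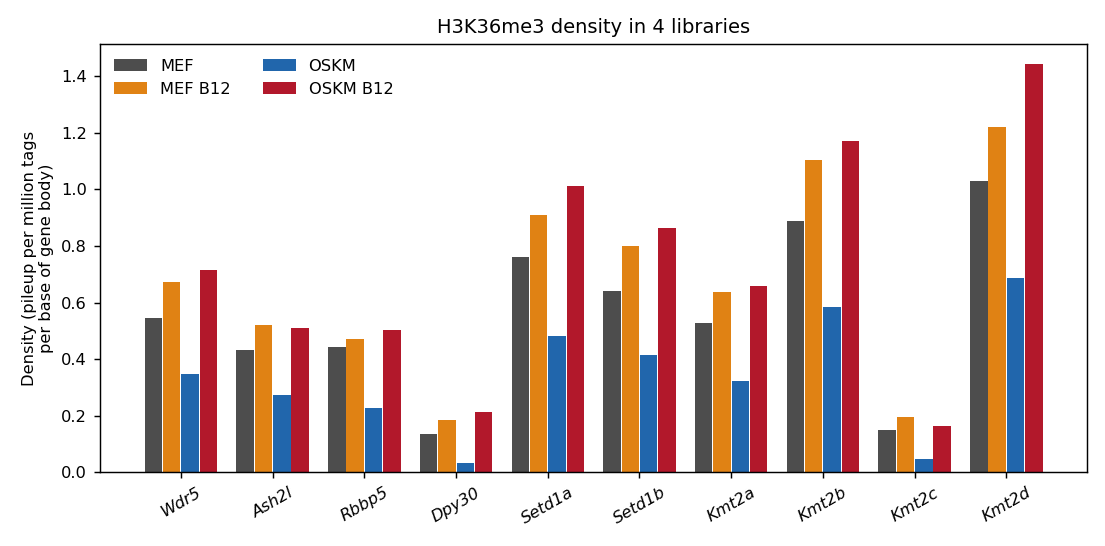
H3K36me3 density, as pileup per 1000000 tags per base of the gene body, in the 4 libraries, with 1 bar per library. OSKM is the lowest bar of every gene, Kmt2d the highest gene at 1.03 in MEF, and OSKM B12 stands above MEF in all 10 genes.

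Split by part, the OSKM to MEF density ratio was higher at the 3′ part than at the 5′ part in 6 genes and lower in 4, and it was higher in 62.2% of marked genes. At Wdr5 it was 0.814 in the 3′ part and 0.576 in the 5′ part. The same direction was found for Setd1b (0.784 and 0.607), Setd1a (0.756 and 0.597), Rbbp5 (0.641 and 0.465), Kmt2c (0.423 and 0.130) and Dpy30 (0.389 and 0.160). The reverse was found for Kmt2b (0.556 and 0.687), Kmt2d (0.641 and 0.672), Ash2l (0.597 and 0.649) and Kmt2a (0.604 and 0.617). Wdr5 had the highest 3′ ratio of the 10 genes. The authors' files give each broad peak a single mean pileup, so a gene that is 1 peak has the same level at both ends by construction, and a ratio between its parts then reflects where the OSKM peaks lie.

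In bases that were in a peak in all 4 libraries, the pileup per 1000000 tags of Wdr5 was 0.683 in MEF and 0.565 in OSKM, against 0.823 and 0.902 with B12. The OSKM to MEF ratio on these bases was 0.826 at Wdr5. Since each MEF value is a mean over a whole peak, which at Wdr5 spans the stretches missing in OSKM, it includes the signal of those stretches, and the ratio is not a comparison of the shared bases alone. It was 0.733 at Ash2l, 0.745 at Rbbp5, 0.708 at Setd1a, 0.706 at Setd1b, 0.690 at Kmt2a, 0.666 at Kmt2b, 0.681 at Kmt2d and 0.790 at Kmt2c. At Dpy30 it was 0.987, on 1493 bases. The shared bases of Dpy30 and Kmt2c were 6.10% and 9.37% of the body, so these 2 values describe a small part of each gene.

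OSKM B12 had a higher density than OSKM by at least 1.5-fold in 10 of the 10 genes, beside 98.7% of marked genes. At Wdr5 the ratio was 2.05 (1.89 to 2.23). The median of the 10 genes was 2.09 and that of the marked genes 2.38, so 8 of the 10 genes had a smaller ratio than the median marked gene, and the median of the 10 was 0.877 once divided by that of marked genes. Dpy30, at 6.12 (4.93 to 7.58), and Kmt2c, at 3.42 (3.21 to 3.64), had larger ones, and Ash2l had the smallest, at 1.87 (1.72 to 2.02). Uncalled bases count as 0, so these ratios also reflect how many bases were called. The mean pileup of called bases, not divided by tags, had a ratio of 0.910 at Dpy30 and 1.09 at Kmt2c. At the other genes it ran from 1.21 (Rbbp5) to 1.80 (Kmt2d). The intervals take the called bases as given, and Dpy30 had an estimated 98.7 tags in OSKM. The covered share was also higher in OSKM B12 in all 10 genes, from 1.01 times at Kmt2b to 5.96 times at Dpy30.

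The bases that OSKM lacked were mostly covered again in OSKM B12. Of the 4216 bases of Wdr5 in MEF peaks and outside OSKM peaks, 97.1% lay in an OSKM B12 peak. The share was 100% at Ash2l, Rbbp5, Setd1a and Kmt2b, 88.5% at Kmt2a and at Kmt2d, 86.6% at Dpy30, 64.4% at Kmt2c and 50.4% at Setd1b. The median was 92.8% for the 10 genes and 81.9% for 8529 marked genes with such bases. OSKM in turn kept 75.6% of the MEF peak bases of Wdr5, less than the median of 86.0% over the 10 genes and more than that of 59.0% over marked genes. Of the OSKM peak bases of Wdr5, 87 (0.660%) lay outside MEF peaks. This share was 6.60% at Dpy30, 5.97% at Kmt2c, 3.20% at Setd1b and between 0 and 1.70% at the others.

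B12 without doxycycline gave smaller differences. MEF B12 was higher than MEF by at least 1.5-fold in 0 of the 10 genes, beside 8.81% of marked genes. The ratio was above 1 in all 10, with a median of 1.23 beside 1.19 for marked genes. It was 1.24 (1.15 to 1.34) at Wdr5, lowest at Rbbp5 with 1.06 (0.987 to 1.15), whose interval holds 1, and highest at Dpy30 with 1.37 (1.197 to 1.577). The covered share had a median ratio of 1.02, with the highest at Dpy30 (1.31), and only Kmt2d had fewer covered bases in MEF B12, with a ratio of 0.998.

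The order of the 4 densities was the same in 8 genes, with OSKM lowest, then MEF, MEF B12 and OSKM B12. In Ash2l and Kmt2c the last 2 changed places. These orders were found in 56% and 30.9% of 8425 marked genes with peaks in every library. The counting interval of the OSKM B12 to MEF B12 ratio held 1 at Wdr5 (1.06, 0.987 to 1.14), Ash2l, Rbbp5 and Kmt2a, so their order in these 4 genes was not resolved by the tags counted. It lay above 1 at Kmt2d (1.18, 1.14 to 1.23), Dpy30, Setd1a, Setd1b and Kmt2b, and below 1 at Kmt2c (0.837, 0.801 to 0.874). Against untreated MEF, OSKM B12 was higher by at least 1.5-fold in 1 gene, Dpy30, beside 14.3% of marked genes, and its ratio of 1.59 had an interval of 1.39 to 1.81.

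**Figure D4:**
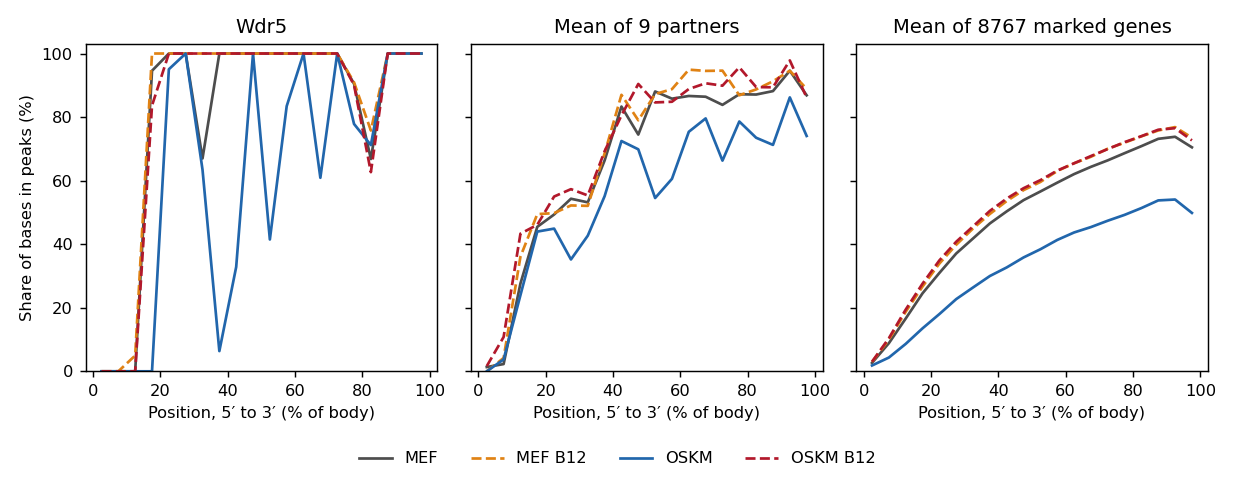
Share of bases in peaks in 20 equal bins from the 5′ to the 3′ end, for Wdr5, for the mean of its 9 partners and for the mean of 8767 marked genes, with 1 line per library (dashed with B12). Wdr5 in OSKM drops to several low points between fully covered bins and meets the other lines at the 3′ end, whereas the mean of marked genes lies lower in OSKM along the whole body, from 70.5% in MEF to 49.8% in the last bin.

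Likeness to Wdr5 was measured over these profiles, as the mean absolute difference of the covered share over 20 bins in 4 libraries (80 values). The 3 marked genes nearest to Wdr5 were Mphosph10 (5.69 percentage points), Clk1 (6.13) and Asna1 (6.45), out of 8766. Mphosph10 had 1 peak over 85.3% of the body in MEF and 4 over 64.7% in OSKM, Clk1 1 over 86.6% and 4 over 70.9%, and Asna1 1 over 84.8% and 2 over 61.5%. No partner was among them. The nearest partner was Setd1a, at 12.998 points and rank 573, followed by Setd1b (14.3), Kmt2b (14.9), Kmt2d (15.8), Rbbp5 (17.1), Kmt2a (22.8) and Ash2l (24.4). Dpy30 (47.0) and Kmt2c (52.5) were further away than the median marked gene, at 36.1 points. All 80 values come from the same 4 libraries.

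The stretches missing in OSKM differed in sequence from those in peaks in all 4 libraries. At Wdr5, 20.6% of the bases in peaks in all 4 libraries and 37.5% of the 4095 bases missing in OSKM alone were masked as repeats. The missing bases had the higher repeat share in 9 of the 10 genes, beside 72.5% of 8011 marked genes with both kinds of base, and the medians were 17.8% and 37.9% over the 10 genes and 16.4% and 22.3% over marked genes. Dpy30 was the exception, with 70.5% and 49.3%. The content of G and C was lower in the missing bases in all 10 genes, beside 82.5% of marked genes. The medians were 48.2% and 42.4% over the 10 genes and 47.5% and 44.8% over marked genes. The missing bases numbered only 338 at Kmt2b and 529 at Kmt2d, and at Kmt2d the 2 values were close, at 55.6% and 54.3%. The exon share was lower in the missing bases in 9 of the 10 genes, beside 68.8% of marked genes: at Wdr5 exons made up 19.1% of the bases kept in all libraries and 6.67% of the missing ones, and at Setd1a 29.8% and 3.41%. Kmt2d was the exception, with 54.0% and 59.2%. Between OSKM peaks of the 10 genes lay 59 stretches of at least 200 bases missing in OSKM alone, and 42 of them held no exon base. Most of the 59 lay in Kmt2c, which had 24107 bases missing in OSKM alone, so the count mainly describes that gene. It was not made over marked genes. Tags were 75 bases long, and how well they can be placed in repeats was not tested. With repeat-masked bases left out, an alternative added after the data were seen, the median OSKM to MEF ratio over the 10 genes was 0.661 for the density and 0.893 for the covered share, beside 0.633 and 0.865 with all bases.

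**Figure D5:**
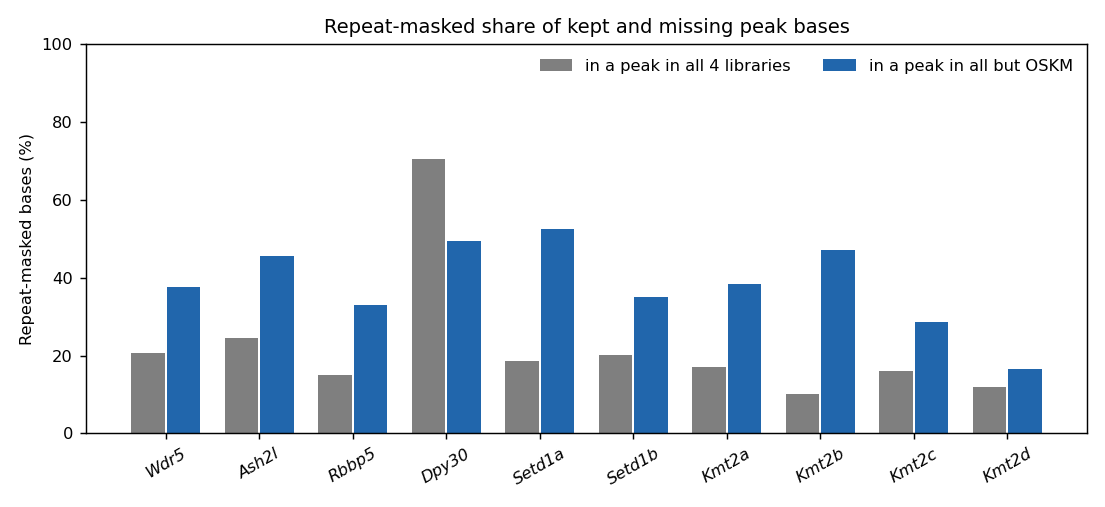
Share of repeat-masked bases among those in a peak in all 4 libraries (grey) and among those in a peak in all libraries but OSKM (blue), for each gene. The blue bar is the higher one in 9 genes and the lower one in Dpy30.

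The start of the covered block lay well inside each gene. The first peak base of Wdr5 was 3265 bases from the TSS in MEF, in intron 1, and 4329 bases in OSKM, in intron 3. Over the 10 genes the median distance was 4070 bases in MEF and 6123.5 in OSKM, and over marked genes 3954 and 5094. With B12 it was 5636.5 bases in MEF B12 and 3353.5 in OSKM B12 over the 10 genes, and 3688 and 3615.5 over marked genes. A later start than in MEF was thus also found in MEF B12 for the 10 genes, but not for marked genes. The window from 250 bases before to 50 after the TSS held no peak base in any library at any of the 10 genes, and it held one at between 1.83% and 2.79% of marked genes, depending on the library. Neighbouring genes touched the peaks of a few members. Tmem81 shared the last peak of Rbbp5 in 3 libraries and Igflr1 and U2af1l4 that of Kmt2b in all 4, so the 3′ peaks there cover more than one gene, and the end of Wdr5 had no protein-coding neighbour within 5 kb.

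Further subunits of the complexes were counted from a list. Of Cxxc1, Wdr82, Bod1, Hcfc1, Men1, Psip1, Paxip1, Pagr1a, Kdm6a and Ncoa6, 8 had a lower density in OSKM than in MEF by at least 1.5-fold and 0 a higher one, beside the 84.6% of marked genes that were lower, with a median ratio of 0.570. The others were Cxxc1 (0.683), which binds unmethylated CpG for the SETD1 complexes, and Pagr1a, at 1.21. Pagr1a has 3 exons and so lies outside the marked genes. Its body of 2320 bases held 1 peak over 22.3% in MEF and 1 over 29.1% in OSKM. The lowest was Kdm6a, an H3K27 demethylase of the KMT2C and KMT2D complexes, at 0.113 from a density of 0.0389 to 0.00441. Cxxc1, Pagr1a and Kdm6a were singled out after their values were seen. All 10 were higher in OSKM B12 than in OSKM by at least 1.5-fold, beside 98.7% of marked genes. The H3K4 demethylases Kdm1a, Kdm5a, Kdm5b, Kdm5c and Kdm5d, which remove the mark that COMPASS sets, were lower in OSKM in 5 of 5, with a median ratio of 0.493, and higher with B12 in 5 of 5. Both lists were thus on the side of most marked genes, with counts near the background shares.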

How the data were processed

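ChIP–seq was carried out for H3K36me3 in 4 groups of i4F MEFs at 72 h, with 1 H3K36me3 library and 1 input library per group. Per the submitters' processing notes and the file headers, the authors aligned 75-base reads to mm10 with Bowtie version 0.12.9, removed duplicates and used MACS2 version 2.2.6 to call broad peaks in each library against its own input, with q-value thresholds of 0.05 and 0.1. H3K36me3 libraries held between 29046913 and 33399267 tags, and this depth limits how weak a called peak can be. The pileup deposited for each peak is a signal that counts overlapping extended fragments, averaged over the peak. Fold enrichment, also deposited, is a ratio that sets this pileup against the nearby input level. From the authors' files, p-value and q-value columns (as −log10) served only to rank and filter peaks.

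From these lists, covered bases, peak counts and densities (pileup per 1000000 tags, with uncalled bases at 0) were computed per gene. This used Python 3.11, numpy and the longest protein-coding transcript of GENCODE M21. Sums over intervals were checked against base-by-base sums on simulated peaks. The 1.5-fold call was tried on simulated tag counts that did not pass through peak calling. Peaks on unplaced scaffolds (1 to 16 per list) were left out. Ratios carry 95% counting intervals from tags estimated as pileup times bases over the fragment length. The intervals take the called bases as given and do not cover which bases passed the peak call. Calls used a 1.5-fold difference. Libraries were not replicated, so no test was made and differences describe these libraries alone. The genes named are the 10 chosen genes, fixed lists of further subunits, demethylases and cell type markers, the 3 genes with the covered profile most like that of Wdr5, and neighbours within 5 kb. The genes, lists and settings were chosen with earlier results of these data known. Alternatives covered peak thresholds, merging of peaks, gene models, scaling, call thresholds and the limits of the pattern rule.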

Additional observations from a re-analysis of the deposited data

Results flagged for a closer look

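The effect of OSKM had opposite directions with and without B12. In density, 8 of the 10 genes were lower in OSKM than in MEF and higher in OSKM B12 than in MEF B12, beside 62.0% of marked genes. The ratio with B12 was 1.66 times that without at Wdr5, 2.06 times at Rbbp5, 4.45 times at Dpy30, 1.76 times at Setd1a, 1.66 times at Setd1b, 1.68 times at Kmt2a, 1.61 times at Kmt2b and 1.77 times at Kmt2d. In covered share, 6 of the 10 genes did so, beside 51.3% of marked genes. The factors were 1.1999 at Ash2l, 1.59 at Rbbp5, 4.54 at Dpy30, 1.14 at Setd1a, 1.17 at Kmt2a and 1.04 at Kmt2d. At Kmt2d the covered share was also lower with B12 in MEF (0.998) and higher with B12 in OSKM (1.04), factors that differ by 1.04 times, beside 28.2% of marked genes with opposite directions. With 1 library per group these differences were not tested, and the counting intervals of OSKM B12 to MEF B12 hold 1 at Wdr5, Rbbp5 and Kmt2a.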

How the results depend on the processing

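No paired analysis was possible because each group had 1 H3K36me3 library, and no replicate could be left out. The medians and counts were recomputed under 16 planned settings and 1 added after the data were seen (repeat-masked bases left out). Of the recomputed values, 69 stayed close to their value, 15 moved and 2 changed direction. The 69 include settings that could not change these genes. Every peak of the 10 genes had a fold enrichment of at least 2.06, so a minimum of 2 removed none. No neighbour within 5 kb overlapped the 10 genes, so leaving out shared bases removed nothing. With peaks reaching 5 in −log10 q, 7 genes in place of 10 were higher in OSKM B12 than in OSKM. This count was also classed as close. The 69 thus does not measure stability. Dividing by the median of marked genes sets the median marked gene at 1, so a value then tells which side of that gene a ratio lay on. The median over the 10 genes became 1.22 for OSKM to MEF and 0.877 for OSKM B12 to OSKM, with 2 and 1 genes called. For MEF B12 to MEF it became 1.03 and stayed above 1. The OSKM to MEF ratios then were 1.23 at Wdr5, 1.22 at Ash2l, 1.22 at Setd1a, 1.251 at Setd1b, 1.18 at Kmt2a, 1.27 at Kmt2b and 1.28 at Kmt2d. The ratios of Rbbp5, Dpy30 and Kmt2c stayed below 1, at 0.997, 0.500 and 0.620. Those of OSKM B12 to OSKM were 0.862 at Wdr5, 0.784 at Ash2l, 0.922 at Rbbp5, 0.883 at Setd1a, 0.872 at Setd1b, 0.857 at Kmt2a, 0.843 at Kmt2b and 0.882 at Kmt2d. Those of MEF B12 to MEF were 0.896 at Rbbp5 and 0.999 at Kmt2d.

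When peaks had to reach 5 in −log10 q, the median was 0.390 for OSKM to MEF and 3.09 for OSKM B12 to OSKM, the covered ratio was 0.459, 2 genes were higher in MEF B12 and 1 gene had the Wdr5 pattern. Dpy30 then had no MEF peak and no ratio, and Ash2l and Rbbp5 were listed at 0 in OSKM. Pileup without division by tags gave 1.85 for OSKM B12 to OSKM, 1.09 for MEF B12 to MEF and 0.949 for MEF B12 to MEF at Rbbp5. Fold enrichment in place of pileup gave 1.956 for OSKM B12 to OSKM. Genes lower in OSKM numbered 2 at 2-fold, 5 with 0.05 added to both densities, 9 when peaks had to reach 5 in −log10 q, and 8 with peaks merged, pileup not divided by tags, fold enrichment or repeat-masked bases left out, and genes higher in MEF B12 numbered 3 at the lower of the other fold thresholds tried and 1 with peaks up to 1 kb apart merged. The pattern was met by 4 genes with peaks merged (Setd1a lost) and by 4 with 90% kept (Rbbp5 lost), and by 6 with the last 10% as the 3′ part (Kmt2b added). Other than for the division by the median and the changed call thresholds, the cause was not tested. The number of tags limits the weakest peak that could be called.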
